A study of Mus musculus with 14 samples.

Results

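The microglia genes are 31 genes that mark microglia or are named for their work in these cells, and all 31 were measured on the array, out of 18193 genes with a probe set of their own. Each gene was taken by its symbol in the annotation of the array, and where several probe sets carried that symbol, as for 10 of the genes, the brightest one by its mean across the 14 arrays was used. RNA of sorted brain cells came from hGFAP eGFP mice aged 8 weeks, whose green fluorescent protein (GFP) is driven by the human GFAP promoter, and was measured on 14 arrays in 5 groups. All groups carried that transgene, and no other genotype, treatment or time point is given. From the subependymal zone (SEZ), the neurogenic layer beside the lateral ventricle, came cells positive for GFP together with prominin (SEZ_GFPprom, n = 4), for GFP (SEZ_GFP, n = 2) and for prominin (SEZ_Prom, n = 2), each labelled neural stem, and cells positive for CD24 (SEZ_CD24, n = 2), labelled ependymal. The diencephalon gave cells positive for GFP (DIEC_GFP, n = 4), which are labelled astrocytes. No group was sorted for a microglial surface protein. A GFP sort holds the cells in which this promoter is active, and the labels do not say whether cells with CD24 or prominin were removed from it.

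Microglia are the resident macrophages of the brain parenchyma. They arise from yolk sac progenitors, depend on signalling through the receptor Csf1r for survival, and keep themselves by local division. They sense nucleotides and chemokines through G protein-coupled receptors, take up debris and synapses with the help of complement and Fc receptors, and signal through adaptors that carry an immunoreceptor tyrosine-based activation motif (ITAM). In the adult subependymal zone they lie among the stem cells and neuroblasts and clear dying newborn cells. Several of the 31 genes, such as Ptprc, Itgam and Cd68, are also used by monocytes, border macrophages of the meninges and vessels, or other white blood cells, while Tmem119, P2ry12, Sall1 and Fcrls are more particular to microglia.

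Across genes, 2 arrays from 1 group correlated at 0.942 to 0.979 (Pearson's r), and 2 arrays from different groups at 0.845 to 0.952. The labels name biological replicates without saying whether these are separate animals. The p-values therefore describe the spread among the arrays, and their number limits the precision of every value. The mean signal ratio of the 3' to the 5' probe sets of control transcripts, a measure of RNA length after amplification, was 5.04 to 5.74 on the log2 scale in DIEC_GFP, 4.94 and 5.35 in SEZ_CD24, 4.78 to 5.17 in SEZ_GFPprom, 4.63 and 4.82 in SEZ_GFP and 4.58 and 4.67 in SEZ_Prom. The label of the CD24 sort goes against its markers: the 11 ependymal genes averaged 4.94 and 5.29 on its arrays and 9.24 to 10.02 in SEZ_GFPprom, while the 12 neuroblast genes averaged 10.50 and 11.40 in SEZ_CD24. It is called the CD24 sort here. The neuroblast list includes Cd24a, the gene of the protein this group was sorted for, and the list was also bright in SEZ_GFP.

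Microglia genes were brightest in the CD24 sort and dimmest in the GFP sort of the subependymal zone. Their mean log2 intensity was 8.46 ± 1.14 (SD, n = 2) in SEZ_CD24, 7.26 ± 0.29 (n = 2) in SEZ_Prom, 6.82 ± 0.85 (n = 4) in DIEC_GFP, 6.11 ± 0.39 (n = 4) in SEZ_GFPprom and 5.16 ± 0.11 (n = 2) in SEZ_GFP. The order of the groups therefore did not follow the labelled cell types, since the sorts labelled neural stem took the second, the fourth and the last place. The DIEC_GFP arrays ran from 5.73 to 7.78, across the whole range of SEZ_Prom, past the lower SEZ_CD24 array at 7.66 and into the range of SEZ_GFPprom. SEZ_GFP, at 5.08 and 5.23, lay below every other array. Summed over the 31 genes, intensity was 19510 and 47320 in SEZ_CD24 against 1832 and 2244 in SEZ_GFP. In RNA from a pool of cells, fewer microglia and less RNA per microglial cell cannot be told apart.

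The group with the highest mean was SEZ_CD24 for 28 of the 31 genes, against 19.9% of all genes, and the exceptions were Cd68 and Aif1, highest in SEZ_Prom, and Itgam, highest in SEZ_GFPprom. The group with the lowest mean was SEZ_GFP for 28 genes, against 18.1% of all genes, and the exceptions were Sall1, lowest in SEZ_Prom, Spi1, lowest in DIEC_GFP, and Itgam, whose lowest mean several groups shared. Arrays of the same group also differed across the genes together. SEZ_CD24 replicate 1 stood above replicate 2 for 31 of 31 genes, against 50.1% of all genes. Among the DIEC_GFP arrays, replicate 1 was the highest for 22 genes, against 20% of all genes, and replicate 3 the lowest for 25, against 21.4%. Among the SEZ_GFPprom arrays, replicate 4 was the highest for 15 genes, against 18.9% of all genes. Without SEZ_CD24 replicate 1, SEZ_CD24 had the highest mean for 22 of the 31 genes, against 23.1% of all genes, and SEZ_Prom for 8, and the mean log2 intensity of the genes in SEZ_CD24 was 7.66. Without DIEC_GFP replicate 1 that of DIEC_GFP was 6.50, without DIEC_GFP replicate 3 it was 7.18, and without SEZ_GFPprom replicate 4 that of SEZ_GFPprom was 5.96. Without any 1 of the 14 arrays SEZ_GFP had the lowest mean for 25 to 29 genes, against 15.7% to 23.4% of all genes. Fold changes below use all arrays, and counts of genes that passed are also given without single arrays.

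**Figure D1:**
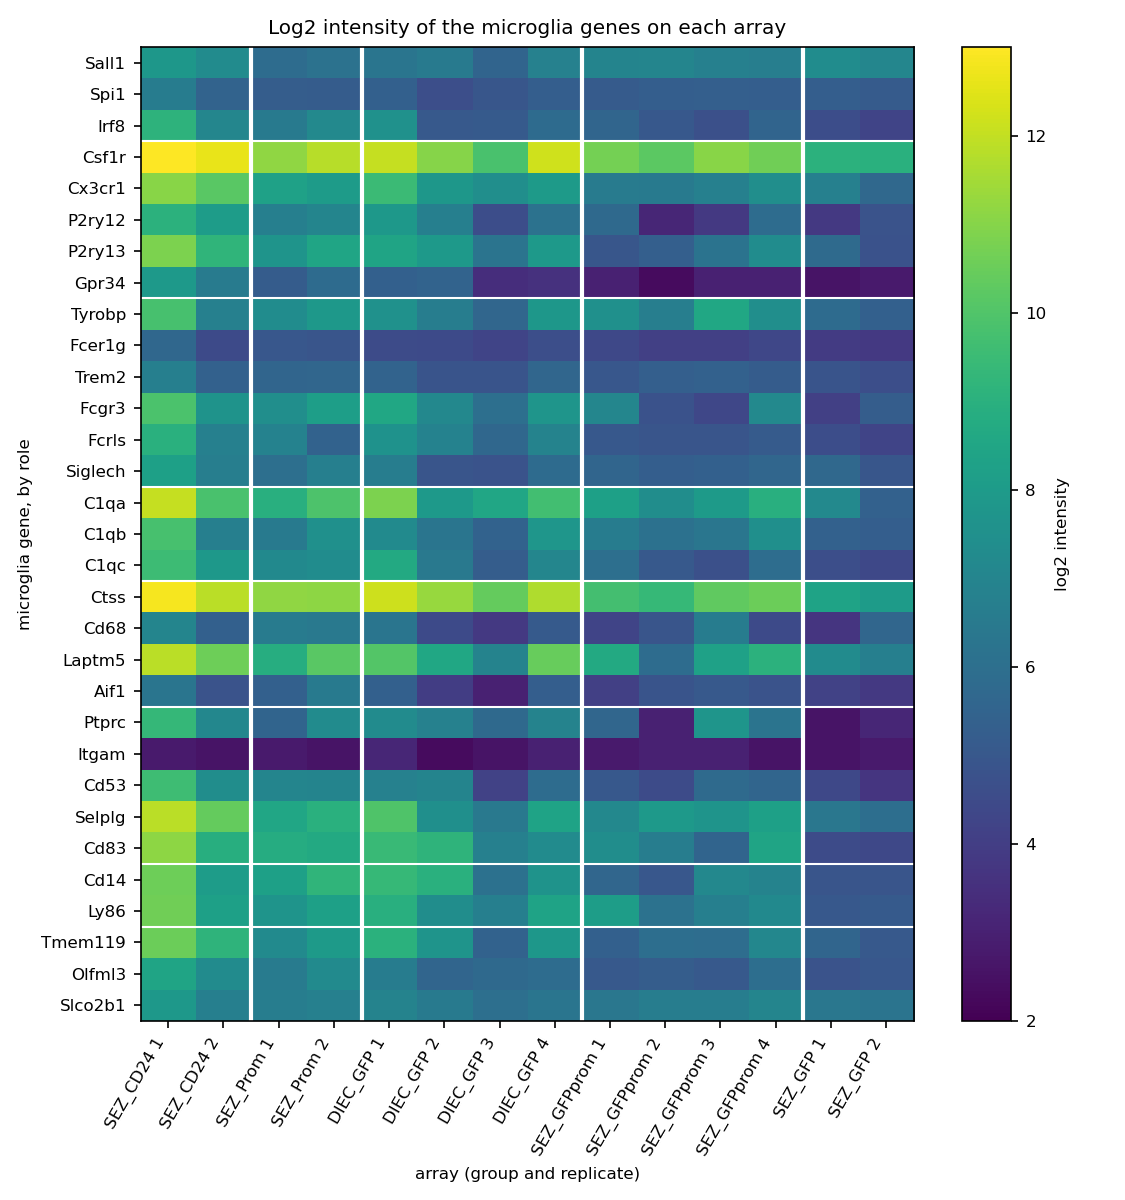
Log2 intensity (colour) of the 31 microglia genes, in rows ordered by role, on each of the 14 arrays, in columns ordered by the group mean of all 31 genes; white lines part the groups and the roles. SEZ_CD24 replicate 1 is the brightest column and the SEZ_GFP columns are the darkest, and Itgam is dark on every array.

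The transcription factors set the identity of these cells: Spi1 (PU.1) and Irf8 are needed for myeloid development, and Sall1 keeps microglia distinct from other macrophages. Irf8 stood at intensities of 551 and 132 on the SEZ_CD24 arrays, 93 and 143 on SEZ_Prom, 192, 34, 35 and 58 on DIEC_GFP, 48, 33, 26 and 46 on SEZ_GFPprom and 24 and 19 on SEZ_GFP. It was highest on SEZ_CD24 replicate 1, followed by DIEC_GFP replicate 1. The SEZ_Prom arrays and SEZ_CD24 replicate 2 lay above the remaining DIEC_GFP arrays. Every SEZ_GFP array lay below every array of the other groups. Spi1 read 98 and 45 on the SEZ_CD24 arrays, 38 and 37 on SEZ_Prom, 42, 25, 31 and 39 on DIEC_GFP, 36, 39, 40 and 39 on SEZ_GFPprom and 39 and 36 on SEZ_GFP. Only the SEZ_CD24 arrays passed 42. The difference between SEZ_CD24 and DIEC_GFP was 0.98 on the log2 scale (95% interval 0.36 to 1.60, adjusted p = 0.0336). This difference did not pass without SEZ_CD24 replicate 1, where that group kept only the array at 45. It also did not pass without DIEC_GFP replicate 2 or 3. Sall1 read 223 and 156 on the SEZ_CD24 arrays, 59 and 70 on SEZ_Prom, 77, 91, 46 and 114 on DIEC_GFP, 124, 127, 111 and 103 on SEZ_GFPprom and 162 and 134 on SEZ_GFP. On the probe set used, its order differed from that of the other genes. SEZ_GFP came next to SEZ_CD24, with overlapping values, and SEZ_Prom had the lowest mean. A dimmer probe set of Sall1, which read at most 52, gave another order of the group means. There SEZ_Prom (5.38 on the log2 scale) came next to SEZ_CD24 (5.55), and SEZ_GFP lay between SEZ_GFPprom (5.08) and DIEC_GFP (4.75). Sall1 is also made by neural progenitors, and beside it the neuroblast genes averaged 10.48 and 10.56 in SEZ_GFP and 7.89 and 8.94 in SEZ_Prom; their part in the Sall1 levels was not tested.

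Spi1 binds DNA through a core of GAGGAA, and its preferred site extends to GAGGAAGT, so the promoters of the microglia genes were searched for these letters on both strands, from 250 bases before to 50 after each start in RefSeq (GRCm38.p6). A window was found for 22 of the 31 genes. GAGGAAGT, which contains the shorter AGGAAGT and GAGGAA, occurred in 4 of the 22 (18.2%) and in 3.69% of all 27025 genes with a window. AGGAAGT occurred in 9 of 22 (40.9%) against 10.7% of all genes, and GAGGAA in 15 of 22 (68.2%) against 31.3%. The match describes letters in a window and shows neither a bound site nor a cause. The 4 promoters with the longest match are shown, with C1qb beside its neighbour C1qc. Of these genes, C1qb and Slco2b1 passed in no comparison below. Capitals mark the match, and positions count from the first transcribed base as 1. Ctss, chr3:95526773-95526802, plus strand, with the match at -2; Cd53, chr3:106790125-106790154, minus strand, at 7; Slco2b1, chr7:99711316-99711345, minus strand, at 7; C1qc, chr4:136892915-136893164, minus strand, at -195; C1qb, chr4:136886201-136886450, minus strand, with AGGAAGT at -53.
Ctss: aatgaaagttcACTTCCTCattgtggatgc
Cd53: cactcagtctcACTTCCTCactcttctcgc
Slco2b1: agtccatgaggGAGGAAGTgactcatcttc
C1qc: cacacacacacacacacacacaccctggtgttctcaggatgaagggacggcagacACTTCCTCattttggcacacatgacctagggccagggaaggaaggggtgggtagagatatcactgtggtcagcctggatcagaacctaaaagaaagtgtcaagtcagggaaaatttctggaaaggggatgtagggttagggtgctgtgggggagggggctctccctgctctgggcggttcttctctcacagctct
C1qb: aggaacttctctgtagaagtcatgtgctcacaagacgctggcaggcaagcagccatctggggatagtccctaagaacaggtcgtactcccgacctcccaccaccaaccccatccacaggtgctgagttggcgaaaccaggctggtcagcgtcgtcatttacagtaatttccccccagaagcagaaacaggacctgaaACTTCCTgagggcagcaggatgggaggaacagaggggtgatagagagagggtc
In Slco2b1 the marked letters stand as GAGGAAGT, and in the other promoters they lie on the opposite strand and read ACTTCCTC or ACTTCCT. The marked stretch of C1qb does not hold the core GAGGAA. In that promoter GAGGAA stands at -30 on the strand shown and is not marked.

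Of the surface receptors for growth factors, chemokines and nucleotides, Csf1r, the receptor for Csf1 and Il34, stood at 9290 and 6304 on the SEZ_CD24 arrays, 2283 and 3648 on SEZ_Prom, 4172, 2044, 910 and 4661 on DIEC_GFP, 1688, 1189, 2096 and 1556 on SEZ_GFPprom and 541 and 502 on SEZ_GFP. The SEZ_CD24 arrays lay above all others and the SEZ_GFP arrays below all others. Cx3cr1, the receptor for the neuronal chemokine fractalkine, stood at 2139 and 1170 on the SEZ_CD24 arrays, 312 and 261 on SEZ_Prom, 723, 223, 175 and 254 on DIEC_GFP, 96, 89, 112 and 174 on SEZ_GFPprom and 112 and 53 on SEZ_GFP. SEZ_CD24 again lay above every other array, and no SEZ_GFPprom array reached the lowest DIEC_GFP array, although 174 and 175 nearly met. P2ry12, which guides microglial processes to nucleotides released at injuries, stood at 544 and 271 on the SEZ_CD24 arrays, 106 and 129 on SEZ_Prom, 233, 108, 24 and 71 on DIEC_GFP, 54, 9, 14 and 59 on SEZ_GFPprom and 14 and 28 on SEZ_GFP. SEZ_CD24 was above all others, and DIEC_GFP replicate 3 fell within the range of SEZ_GFPprom. P2ry13, a related nucleotide receptor, stood at 1835 and 595 on the SEZ_CD24 arrays, 206 and 349 on SEZ_Prom, 344, 241, 76 and 245 on DIEC_GFP, 31, 40, 74 and 162 on SEZ_GFPprom and 55 and 27 on SEZ_GFP. The SEZ_CD24 arrays were the highest, and SEZ_GFPprom and SEZ_GFP overlapped. Gpr34, a receptor for lysophosphatidylserine, read 251 and 96 on the SEZ_CD24 arrays, 37 and 57 on SEZ_Prom, 42, 45, 11 and 12 on DIEC_GFP, 8, 5, 8 and 8 on SEZ_GFPprom and 6 and 7 on SEZ_GFP. All SEZ_GFPprom and SEZ_GFP arrays lay under 10, where rounding leaves few steps, and all other arrays above 10.

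Among the Fc receptors and ITAM partners, Fcrls, an Fc receptor-like protein of microglia, stood at 502 and 112 on the SEZ_CD24 arrays, 119 and 44 on SEZ_Prom, 193, 117, 51 and 121 on DIEC_GFP, 33, 30, 30 and 36 on SEZ_GFPprom and 24 and 19 on SEZ_GFP. The SEZ_GFPprom arrays lay close together, below every DIEC_GFP and SEZ_Prom array, and the SEZ_GFP arrays below them. Siglech, a sialic acid-binding lectin, stood at 307 and 103 on the SEZ_CD24 arrays, 65 and 107 on SEZ_Prom, 101, 30, 28 and 58 on DIEC_GFP, 48, 39, 42 and 50 on SEZ_GFPprom and 53 and 31 on SEZ_GFP. Only SEZ_CD24 replicate 1 stood clear, since SEZ_CD24 replicate 2, SEZ_Prom replicate 2 and DIEC_GFP replicate 1 read 103, 107 and 101. Trem2, a receptor for lipids and lipoproteins that signals through Tyrobp, stood at 107 and 43 on the SEZ_CD24 arrays, 48 and 50 on SEZ_Prom, 45, 29, 29 and 49 on DIEC_GFP, 32, 40, 43 and 37 on SEZ_GFPprom and 29 and 25 on SEZ_GFP. Apart from SEZ_CD24 replicate 1 its arrays lay between 25 and 50, and no comparison passed the test. The other 3 genes of this role passed in no comparison either. Tyrobp, the ITAM adaptor itself, ranged from 41 to 901, Fcgr3, a low-affinity Fc receptor, from 17 to 937, and Fcer1g, the Fc receptor gamma chain, from 14 to 51. For Tyrobp, SEZ_GFPprom replicate 3, at 377, was the second highest array.

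The genes for the chains of C1q, which starts the classical complement pathway and tags synapses and debris, lie side by side on chromosome 4 (GRCm38, chr4:136880126-136898844 from C1qb through C1qc to C1qa). C1qa stood at 4238 and 920 on the SEZ_CD24 arrays, 498 and 983 on SEZ_Prom, 1808, 242, 369 and 819 on DIEC_GFP, 308, 166, 254 and 489 on SEZ_GFPprom and 145 and 43 on SEZ_GFP. SEZ_CD24 replicate 1 and DIEC_GFP replicate 1 stood above the other arrays of their group, and SEZ_GFP lay below all others. C1qc stood at 750 and 232 on the SEZ_CD24 arrays, 147 and 163 on SEZ_Prom, 414, 88, 38 and 133 on DIEC_GFP, 65, 34, 26 and 61 on SEZ_GFPprom and 25 and 21 on SEZ_GFP. The same arrays of SEZ_CD24 and DIEC_GFP were the highest, and SEZ_GFP again the lowest. C1qb ranged from 39 to 882 and passed in no comparison, and its 2 dimmer probe sets gave a larger distance between SEZ_CD24 and SEZ_GFP (4.13 and 4.53 on the log2 scale) than the one used (2.91).

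Of the genes of the lysosome and of phagocytosis, Ctss, the protease cathepsin S, stood at 7336 and 3744 on the SEZ_CD24 arrays, 2288 and 2244 on SEZ_Prom, 4519, 2501, 1356 and 3313 on DIEC_GFP, 848, 668, 1265 and 1497 on SEZ_GFPprom and 337 and 265 on SEZ_GFP. The SEZ_GFP arrays lay below every other array, and SEZ_GFPprom met DIEC_GFP only where replicate 4 of the first, at 1497, passed replicate 3 of the second, at 1356. Aif1 (Iba1), an actin-binding protein widely used to stain microglia, stood at 78 and 28 on the SEZ_CD24 arrays, 41 and 89 on SEZ_Prom, 41, 16, 8 and 39 on DIEC_GFP, 17, 29, 34 and 28 on SEZ_GFPprom and 18 and 14 on SEZ_GFP. SEZ_Prom had the highest mean, DIEC_GFP spread across most of the other groups, and no comparison passed. Cd68, a lysosomal membrane protein, ranged from 13 to 128, and Laptm5, a lysosomal protein of blood cells, from 59 to 3678, and neither passed in any comparison.

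Of the leukocyte surface genes, all but Itgam varied widely between arrays. Ptprc (CD45), a phosphatase on all white blood cells, stood at 641 and 138 on the SEZ_CD24 arrays, 46 and 156 on SEZ_Prom, 157, 115, 54 and 120 on DIEC_GFP, 50, 8, 212 and 75 on SEZ_GFPprom and 6 and 9 on SEZ_GFP. The SEZ_GFPprom arrays ran from 8, as low as SEZ_GFP, to 212, above every DIEC_GFP array. Cd53, a tetraspanin, stood at 771 and 166 on the SEZ_CD24 arrays, 129 and 126 on SEZ_Prom, 115, 124, 18 and 59 on DIEC_GFP, 33, 23, 56 and 48 on SEZ_GFPprom and 21 and 13 on SEZ_GFP. Selplg, the ligand of P-selectin, stood at 3696 and 1334 on the SEZ_CD24 arrays, 364 and 504 on SEZ_Prom, 1008, 181, 87 and 333 on DIEC_GFP, 140, 248, 204 and 308 on SEZ_GFPprom and 82 and 62 on SEZ_GFP. In both genes the SEZ_CD24 arrays lay above all others, and SEZ_GFP below SEZ_GFPprom. Cd83, a surface protein of activated antigen-presenting cells, stood at 2227 and 477 on the SEZ_CD24 arrays, 450 and 408 on SEZ_Prom, 711, 576, 111 and 156 on DIEC_GFP, 168, 102, 46 and 346 on SEZ_GFPprom and 23 and 21 on SEZ_GFP. SEZ_GFP lay below every other array, and replicates of DIEC_GFP and SEZ_GFPprom differed by several fold. Itgam (CD11b), the integrin chain most used to sort microglia, read 5 to 9 on all 14 arrays, so its probe set gave no usable level, and its values are not read as absence of the protein or the cells.

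The Toll co-receptors were Cd14, which hands lipopolysaccharide to Tlr4, and Ly86, which pairs with a Toll-like relative. Cd14 stood at 1508 and 273 on the SEZ_CD24 arrays, 309 and 591 on SEZ_Prom, 662, 511, 68 and 201 on DIEC_GFP, 49, 32, 142 and 121 on SEZ_GFPprom and 30 and 30 on SEZ_GFP. Ly86 stood at 1565 and 301 on the SEZ_CD24 arrays, 204 and 308 on SEZ_Prom, 484, 170, 107 and 332 on DIEC_GFP, 275, 70, 106 and 151 on SEZ_GFPprom and 33 and 35 on SEZ_GFP. In both, SEZ_GFP lay below every other array, and SEZ_CD24 replicate 2 stood inside the range of SEZ_Prom or DIEC_GFP. The remaining markers were Tmem119, a membrane protein of microglia of unsettled function, Olfml3, a secreted olfactomedin-like protein, and Slco2b1, an organic anion transporter. Tmem119 stood at 1500 and 575 on the SEZ_CD24 arrays, 153 and 258 on SEZ_Prom, 526, 208, 44 and 224 on DIEC_GFP, 42, 62, 61 and 136 on SEZ_GFPprom and 48 and 34 on SEZ_GFP. Olfml3 stood at 344 and 156 on the SEZ_CD24 arrays, 95 and 155 on SEZ_Prom, 98, 48, 54 and 59 on DIEC_GFP, 34, 38, 34 and 63 on SEZ_GFPprom and 28 and 32 on SEZ_GFP. In both genes SEZ_CD24 was above all others, though SEZ_Prom replicate 2, at 155, came within 1 of SEZ_CD24 replicate 2 for Olfml3. Slco2b1 ranged from 64 to 235 and passed in no comparison. Another probe set of Slco2b1 differed by 4.42 on the log2 scale between SEZ_CD24 and SEZ_GFP, against 1.02 for the one used.

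**Figure D2:**
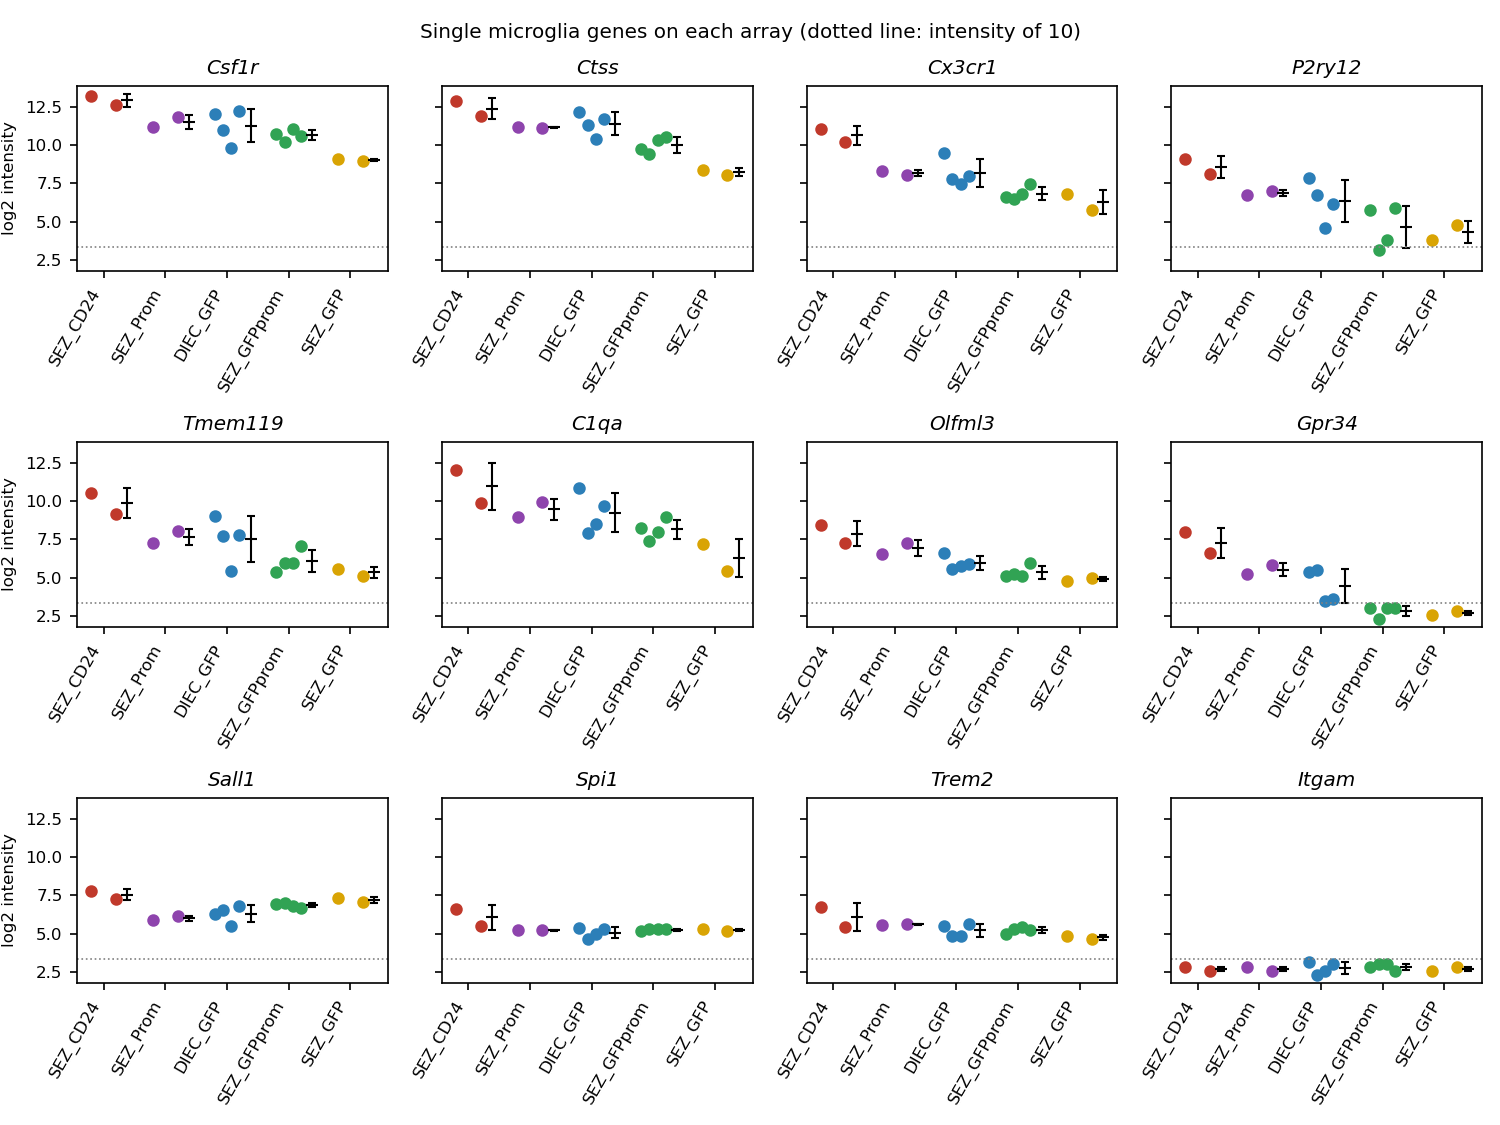
Log2 intensity of 12 microglia genes on each array (points, by group), with the group mean and SD beside them (bars) and a dotted line at an intensity of 10. Csf1r and Cx3cr1 are highest on both SEZ_CD24 arrays; Sall1 and Spi1 span a narrow range; Gpr34 lies under the line in SEZ_GFPprom and SEZ_GFP, and Itgam in every group.

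Cells positive for GFP and prominin were set against the CD24 sort of the same tissue, and here the most microglia genes passed. Of 31, 17 fell and 0 rose at an adjusted p under 0.05, where over all 18193 genes 4.74% fell and 8.98% rose, and the median difference (SEZ_GFPprom minus SEZ_CD24) was -2.57 over the microglia genes and 0.10 over all genes. The groups did not overlap, with SEZ_GFPprom lower, for 23 genes, against 13% of all genes. All 5 receptors passed: Cx3cr1 was 13.9-fold lower (log2 difference -3.80, 95% interval -4.95 to -2.65, adjusted p = 0.000793), P2ry13 16.8-fold lower (adjusted p = 0.00435), P2ry12 15.3-fold lower (adjusted p = 0.0145) and Csf1r 4.78-fold lower (adjusted p = 0.0183). Gpr34, which lay under 10 in SEZ_GFPprom, differed by -3.96 with values under 10 set to 10. Olfml3 was 5.68-fold lower (adjusted p = 0.00161), Tmem119 13.6-fold, Selplg 10.3-fold, C1qc 9.64-fold, Cd53 9.47-fold, Cd14 8.91-fold, Cd83 8.02-fold, Fcrls 7.37-fold, Irf8 7.27-fold, C1qa 6.99-fold, Ctss 5.15-fold and Siglech 3.99-fold lower. Ly86, at -2.37 (adjusted p = 0.0511), and Laptm5, at -3.24 (adjusted p = 0.0548), missed the threshold. Without SEZ_CD24 replicate 1 the median over the microglia genes was -1.81, and 4 genes passed, namely Cx3cr1, Gpr34, Olfml3 and P2ry13, which also passed without any other array, and the difference of Fcrls was then no longer called (adjusted p = 0.101). Without any other array 13 to 19 genes passed.

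Cells positive for GFP in the 2 regions were compared next. In SEZ_GFP against DIEC_GFP 9 microglia genes fell and 0 rose, against 7.05% and 5.61% of all genes, with a median difference of -1.92 over the microglia genes and 0.00 over all genes. The groups did not overlap, with SEZ_GFP lower, for 18 genes, against 16.4% of all genes, and with SEZ_GFP higher for 1, Sall1, against 15.7%. Ctss was 8.93-fold lower in SEZ_GFP (log2 difference -3.16, 95% interval -4.16 to -2.16, adjusted p = 0.00111), and it was the gene that passed without each of the 14 arrays in turn. Cd83 was 13.2-fold lower, Cd14 8.69-fold, C1qa 7.64-fold, Ly86 6.84-fold, Fcrls 5.09-fold, Csf1r 4.71-fold and Cx3cr1 3.78-fold. Ptprc, which lay under 10 in SEZ_GFP, differed by -3.38 with values under 10 set to 10, and then no longer passed (adjusted p = 0.083). P2ry12, at -2.03 (adjusted p = 0.182), and Tmem119, at -2.17 (adjusted p = 0.104), did not pass. The count was 1 without SEZ_GFP replicate 1 or 2, 4 without DIEC_GFP replicate 1 and 15 without DIEC_GFP replicate 3, the array with the lowest microglia signal of its group. With the 3' to 5' ratio as a covariate, which was higher on every DIEC_GFP array than on the SEZ_GFP arrays, 1 gene passed.

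The double sort differed less from the diencephalic cells. In SEZ_GFPprom against DIEC_GFP 4 microglia genes fell and 0 rose, against 7.78% and 10.1% of all genes, and the median difference was -0.72 over the microglia genes and 0.08 over all genes. The groups did not overlap, with SEZ_GFPprom lower, for 3 genes, against 7.77% of all genes. Fcrls was 3.38-fold lower (log2 difference -1.76, 95% interval -2.83 to -0.68, adjusted p = 0.0298), Ctss 2.62-fold (adjusted p = 0.0253) and Cx3cr1 2.56-fold (adjusted p = 0.0478), and Gpr34, with values under 10 set to 10, differed by -1.16 and no longer passed (adjusted p = 0.152). Sall1 was the gene nearest to a difference the other way, at 0.57 (95% interval 0.03 to 1.12, adjusted p = 0.14). No gene passed without DIEC_GFP replicate 1 or 2 or without SEZ_GFPprom replicate 1 or 2, 1 passed without SEZ_GFPprom replicate 3, 2 passed without DIEC_GFP replicate 4 or without either SEZ_GFP array, and 10 passed without DIEC_GFP replicate 3. With the 3' to 5' ratio as a covariate 0 passed.

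SEZ_GFPprom and SEZ_GFP, which share GFP and differ in the labels by the selection for prominin, were compared with each other. The 11 ependymal genes averaged 9.66 in SEZ_GFPprom and 5.89 in SEZ_GFP, and the part of such cells in this comparison was not tested. By limma 0 of 31 microglia genes passed, against 3.17% of all genes (2.63% higher and 0.539% lower in SEZ_GFPprom). The median difference was 0.75 over the microglia genes and 0.07 over all genes. Sall1 was lower in SEZ_GFPprom, at -0.35, and Spi1 lay near 0, at 0.04. The groups did not overlap, with SEZ_GFPprom higher, for 16 genes, against 15.9% of all genes, and with SEZ_GFPprom lower for 1, against 9.89%. Ctss came nearest, at 1.77 (95% interval 0.76 to 2.77, adjusted p = 0.0652), followed by Csf1r at 1.62 (adjusted p = 0.163) and Cd83 at 2.55 (adjusted p = 0.192). Without DIEC_GFP replicate 3 2 genes passed, without SEZ_GFPprom replicate 2 1 passed, and with array weights 3 passed.

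The prominin sort stood between. In SEZ_GFPprom against SEZ_Prom 2 microglia genes fell and 0 rose, against 2.76% and 4.4% of all genes (7.16% in either direction), with a median difference of -1.21 over the microglia genes and 0.04 over all genes, and the groups did not overlap, with SEZ_GFPprom lower, for 21 genes, against 14.8% of all genes. Olfml3 was 2.98-fold lower in SEZ_GFPprom (adjusted p = 0.0323), and Gpr34, with values under 10 set to 10, differed by -2.20 and no longer passed (adjusted p = 0.071). No gene passed without either SEZ_Prom array, and 1 passed without SEZ_GFPprom replicate 1, 2 or 3. In SEZ_GFP against SEZ_Prom 5 fell and 0 rose, against 4.15% and 2.81% of all genes (6.96% in either direction), with a median difference of -2.43 against -0.01 over all genes, and the groups did not overlap for 28 genes with SEZ_GFP lower, against 27.8% of all genes, and for 1, Sall1, with SEZ_GFP higher, against 24.4%. Cd83 was 19.5-fold lower in SEZ_GFP (adjusted p = 0.0324), Ctss 7.58-fold (adjusted p = 0.0101), Csf1r 5.54-fold (adjusted p = 0.0381) and Olfml3 4.05-fold (adjusted p = 0.0221), and Gpr34, with values under 10 set to 10, differed by -2.20 and no longer passed (adjusted p = 0.106). The count was 0 without SEZ_GFP replicate 2 or either SEZ_Prom array and 1 without SEZ_GFP replicate 1. It was 9 without DIEC_GFP replicate 1 or either SEZ_CD24 array and 10 without DIEC_GFP replicate 3, arrays outside the comparison that share its estimate of the spread.

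Within the subependymal zone the distance between the GFP sort and the CD24 sort was the largest in median. In SEZ_GFP against SEZ_CD24 12 microglia genes fell and 0 rose, against 0.456% and 0.363% of all genes (0.819% in either direction), with a median difference of -4.09 over the microglia genes and 0.02 over all genes, and the groups did not overlap, with SEZ_GFP lower, for 28, against 17.9% of all genes, and with SEZ_GFP higher for 0, against 22.3%. Cd83 was 46.9-fold lower in SEZ_GFP, Selplg 31.1-fold, P2ry13 27.1-fold, Tmem119 23.0-fold, Cd53 21.7-fold, Cx3cr1 20.5-fold, Ly86 20.2-fold, Ctss 17.5-fold (log2 difference -4.13, 95% interval -5.29 to -2.97, adjusted p = 0.00496), Csf1r 14.7-fold, Fcrls 11.1-fold and Olfml3 7.74-fold, and Gpr34, with values under 10 set to 10, differed by -3.96 and no longer passed (adjusted p = 0.055). Only 2 arrays stood on each side: the count was 0 without SEZ_GFP replicate 2, 1 without SEZ_GFP replicate 1, 2 without SEZ_CD24 replicate 1, 7 without either SEZ_Prom array and 21 without SEZ_CD24 replicate 2. Sall1, at -0.34 (95% interval -1.11 to 0.43, adjusted p = 0.801), and Spi1, at -0.83 (adjusted p = 0.311), lay far from the median of the list.

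The CD24 sort was also set against the diencephalic GFP-positive cells and the prominin sort. In SEZ_CD24 against DIEC_GFP 9 microglia genes rose and 0 fell, against 6.9% and 9.74% of all genes, with a median difference of 1.57 over the microglia genes and -0.01 over all genes, and 13 did not overlap, with SEZ_CD24 higher, against 14.4% of all genes. Olfml3 was 3.72-fold higher (log2 difference 1.90, 95% interval 1.05 to 2.74, adjusted p = 0.00558), Selplg 8.24-fold, Gpr34 6.95-fold, Cd53 5.73-fold, Cx3cr1 5.44-fold (adjusted p = 0.00745), P2ry13 5.27-fold, Siglech 3.78-fold, Sall1 2.40-fold and Spi1 1.98-fold. None of the 3 complement genes passed, and neither did Ctss, at 0.97 (adjusted p = 0.188). Without SEZ_CD24 replicate 1 the median was 0.61 and 0 genes passed, with DIEC_GFP replicate 3 left out 5 passed, and without SEZ_CD24 replicate 2 or DIEC_GFP replicate 1 14 passed. In SEZ_Prom against SEZ_CD24 2 fell and 0 rose, against 2.1% and 3.43% of all genes (5.53% in either direction), with a median difference of -1.27 against 0.07 over all genes: Cx3cr1 was 5.54-fold lower in SEZ_Prom (adjusted p = 0.0380) and Sall1 2.90-fold (adjusted p = 0.0301), and the groups did not overlap, with SEZ_Prom lower, for 15, against 19.6% of all genes, and with SEZ_Prom higher for 0, against 27.2%. Without SEZ_CD24 replicate 1 the median was -0.36. The count that passed was 0 without any 1 of the 4 arrays compared and 1 without SEZ_GFPprom replicate 2. In SEZ_Prom against DIEC_GFP, by limma, 0 passed, against 6.33% of all genes (3.35% higher and 2.98% lower in SEZ_Prom). Nearest came Olfml3 at 0.96 (95% interval 0.12 to 1.81, adjusted p = 0.195) and Aif1 at 1.51 (95% interval 0.10 to 2.91, adjusted p = 0.226), both higher in SEZ_Prom. The count for SEZ_Prom against DIEC_GFP stayed 0 without each of the 14 arrays in turn and under every other setting run. The comparisons share groups, so their counts are not independent of each other.

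**Figure D3:**
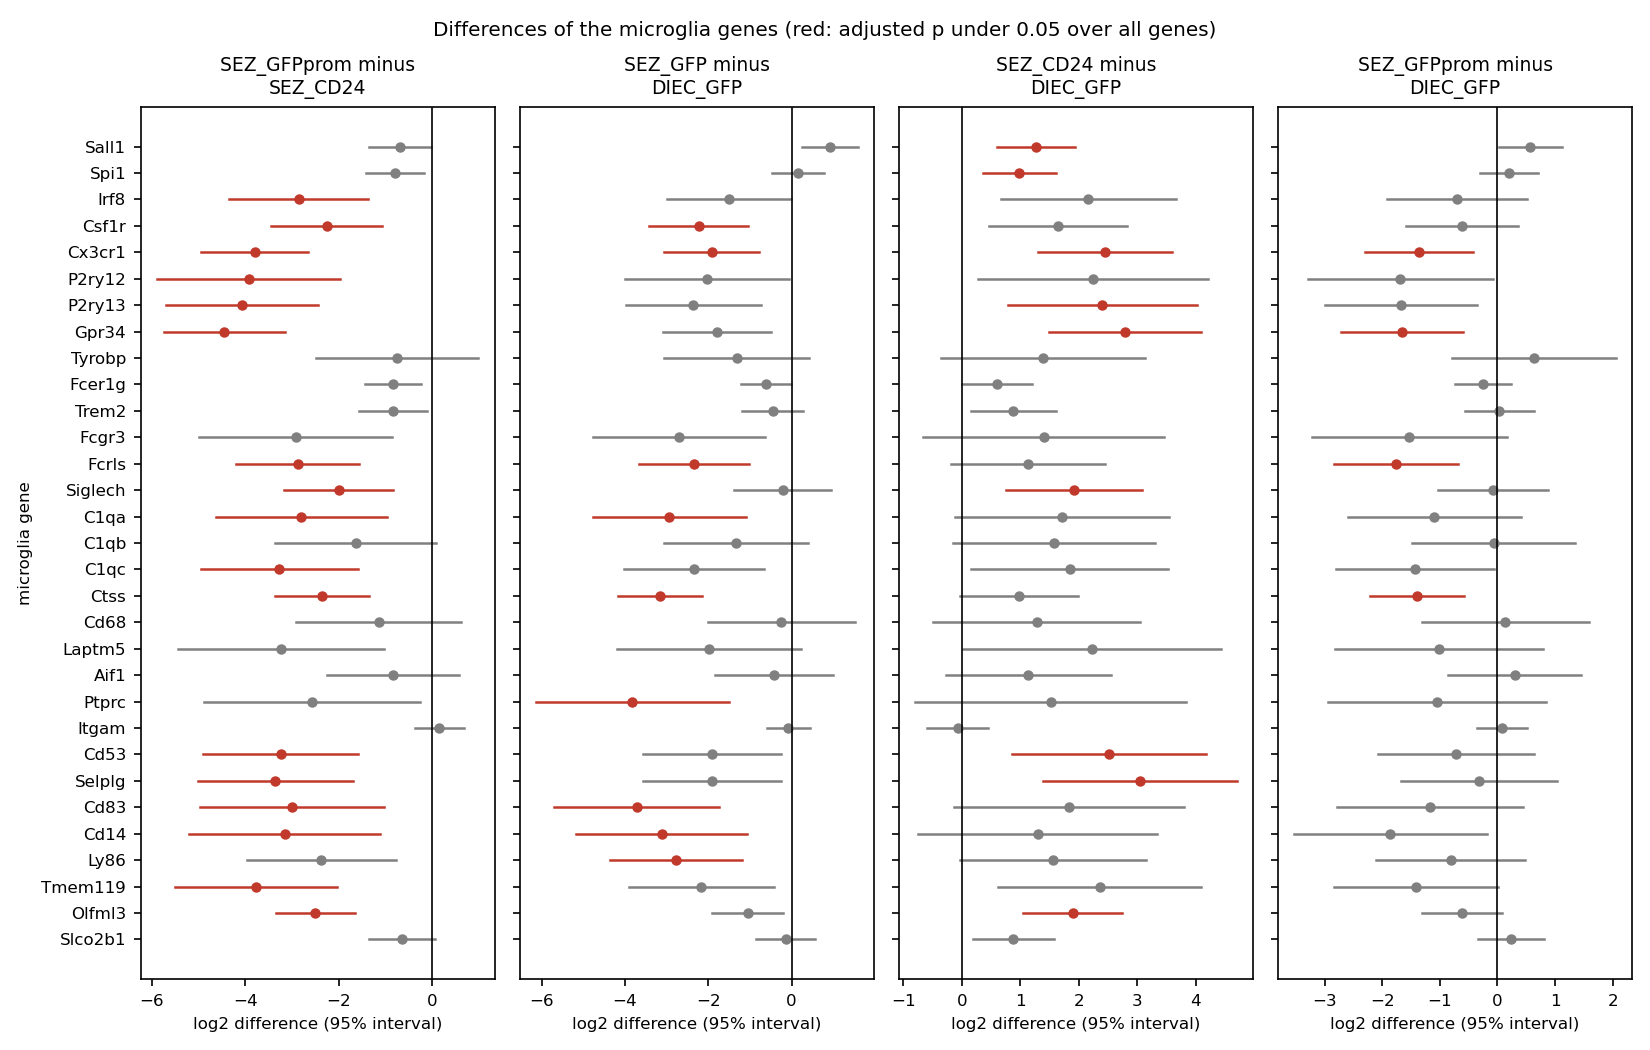
Log2 difference (points) with its 95% interval (lines) for each of the 31 microglia genes in 4 comparisons, red where the adjusted p over all genes was under 0.05. The receptors Cx3cr1, P2ry13 and Gpr34 lie among the largest differences against SEZ_CD24, and Itgam stays near 0 in each comparison. In SEZ_GFPprom minus SEZ_CD24, Sall1 lies at -0.69 and Spi1 at -0.79. In SEZ_GFP minus DIEC_GFP, Sall1 lies at 0.92 where most other genes are negative.

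The genes that passed in none of the 10 comparisons were Tyrobp, Fcer1g, Trem2, Fcgr3, C1qb, Cd68, Laptm5, Aif1, Itgam and Slco2b1. The widest gaps between the highest and the lowest group mean were those of Cd83 (5.55 on the log2 scale), Ptprc (5.34, with SEZ_GFP under 10), Selplg (4.96) and P2ry13 (4.76). The narrowest, apart from Itgam (0.15), were those of Spi1 (0.98), Slco2b1 (1.02), Fcer1g (1.21), Trem2 (1.33) and Sall1 (1.54). Other probe sets of a gene gave the same order of SEZ_CD24 over SEZ_GFP for Csf1r (4.60 and 4.25, against 3.88 for the one used), Irf8 (4.14 against 3.66) and Sall1 (0.55 against 0.34). They gave smaller distances for Cx3cr1 (0.81, a probe set that read at most 38), Ptprc (2.77) and Trem2 (0.11). For Cd53 the other probe set read at most 78 and was highest in SEZ_GFPprom, with a distance of 0.55 against 4.44. Laptm5 had 4 further probe sets, whose distances ran from -0.11 to 3.08 beside 4.20 for the one used. The distances of a gene therefore differ with the probe set read.

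Genes of related pathways were read the same way. Of 29 further genes of homeostatic microglia, 25 were measured. In SEZ_GFPprom against SEZ_CD24 9 of them fell and 0 rose, against 4.74% and 8.98% of all genes, with Golm1, a Golgi membrane protein, at -1.92 (adjusted p = 0.000468) and Vsir, an inhibitory receptor, at -2.99 (adjusted p = 0.00676), and the median was -0.97. In SEZ_GFP against DIEC_GFP 7 fell and 1 rose, against 7.05% and 5.61% of all genes, and the riser was Golm1, at 2.19 (adjusted p = 0.000238), so Golm1 did not follow the microglia genes there. Of 26 measured ITAM, Fc receptor and myeloid signalling genes, 9 fell in SEZ_GFPprom against SEZ_CD24, against 4.74% of all genes. In SEZ_CD24 against DIEC_GFP 7 rose, against 6.9% of all genes, with Inpp5d, a lipid phosphatase that damps ITAM signals, at 2.17 (adjusted p = 0.00273), Hcls1, a cytoskeletal adaptor, at 1.42 (adjusted p = 0.00704) and Was, an actin regulator, at 1.49 (adjusted p = 0.00821).

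Genes of activated microglia and phagocytes, 20 of which were measured, gave other counts. In SEZ_CD24 against DIEC_GFP 6 of them fell and 0 rose, against 9.74% and 6.9% of all genes, with Apoe, the lipid carrier, at -2.13 (adjusted p = 0.00393) and the protease Ctsl at -1.60 (adjusted p = 0.00463). In SEZ_GFPprom against SEZ_CD24 3 rose and 0 fell, against 8.98% and 4.74% of all genes, namely Lgals3 at 4.18 (adjusted p = 5.88e-05), Gas6 at 1.44 (adjusted p = 0.0223) and Apoe at 1.59 (adjusted p = 0.0246). Apoe and Gas6 are made by astrocytes as well, and the 14 astrocyte genes averaged 9.59 to 10.67 in DIEC_GFP, 8.77 to 9.09 in SEZ_GFPprom and 7.47 ± 0.75 (SD, n = 2) in SEZ_CD24; their part in these differences was not tested. Of the growth and retention signals, Nrros, which microglia need to activate transforming growth factor beta, fell in SEZ_GFPprom against SEZ_CD24, at -3.08 (adjusted p = 0.00495). Csf1, the ligand of Csf1r, fell in SEZ_GFP against DIEC_GFP, at -1.65 (adjusted p = 0.00478), and Il34, its other ligand, rose in SEZ_GFPprom against DIEC_GFP, at 0.70 (adjusted p = 0.022). Of 28 Toll receptors, cytokines and chemokines, 5 fell in SEZ_GFPprom against SEZ_CD24, against 4.74% of all genes, with Tnfaip3, a brake on inflammatory signalling, at -4.11 (adjusted p = 0.00601) and Il1a at -2.47 (adjusted p = 0.0173).

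Markers of blood-derived and other cells were read beside the microglia genes. The 3 erythrocyte genes measured summed to 3509 and 9020 in SEZ_CD24 and to 48 to 108 on the other arrays, with Alas2, the heme synthesis enzyme of red cells, higher by 6.79 in SEZ_CD24 than in DIEC_GFP (adjusted p = 2.24e-05). The 10 genes of monocytes and neutrophils summed to 295 and 1300 in SEZ_CD24 and to 125 to 185 elsewhere, and 4 of the 10 rose in SEZ_CD24 against DIEC_GFP, against 6.9% of all genes, with S100a9 at 3.65 (adjusted p = 0.00282), Ngp at 2.80 and Ltf at 1.95. The higher SEZ_CD24 array of both lists was replicate 1, as for the microglia genes. The 14 border macrophage genes went another way: they averaged 4.62 to 5.82 in DIEC_GFP and 3.94 to 4.60 on the other arrays, and 5 of the 14 fell in SEZ_CD24 against DIEC_GFP, against 9.74% of all genes, with F13a1 at -3.12 (adjusted p = 0.000788) and Clec10a at -2.20 (adjusted p = 0.00141), while 9 microglia genes rose. The 12 lymphocyte genes averaged 3.58 to 4.15 on all arrays. The 8 genes of choroid plexus cells, the epithelium that secretes cerebrospinal fluid, averaged 7.55 in SEZ_Prom, 7.01 in SEZ_CD24, 5.81 in SEZ_GFPprom, 5.64 in DIEC_GFP and 4.61 in SEZ_GFP. By group mean SEZ_GFP was the lowest, as for the microglia genes, but SEZ_Prom stood above SEZ_CD24. Single arrays overlapped: SEZ_GFP averaged 4.11 and 5.11, and SEZ_GFPprom 5.02 to 6.32. Summed intensity of the choroid plexus genes was 519 and 9275 in SEZ_GFP and 9195 and 14932 in SEZ_CD24. Of the 8, 4 fell in SEZ_GFP against SEZ_CD24, against 0.456% of all genes, and 3 in SEZ_GFPprom against SEZ_CD24, against 4.74%. The part of these cells in the microglia values was not tested.

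**Figure D4:**
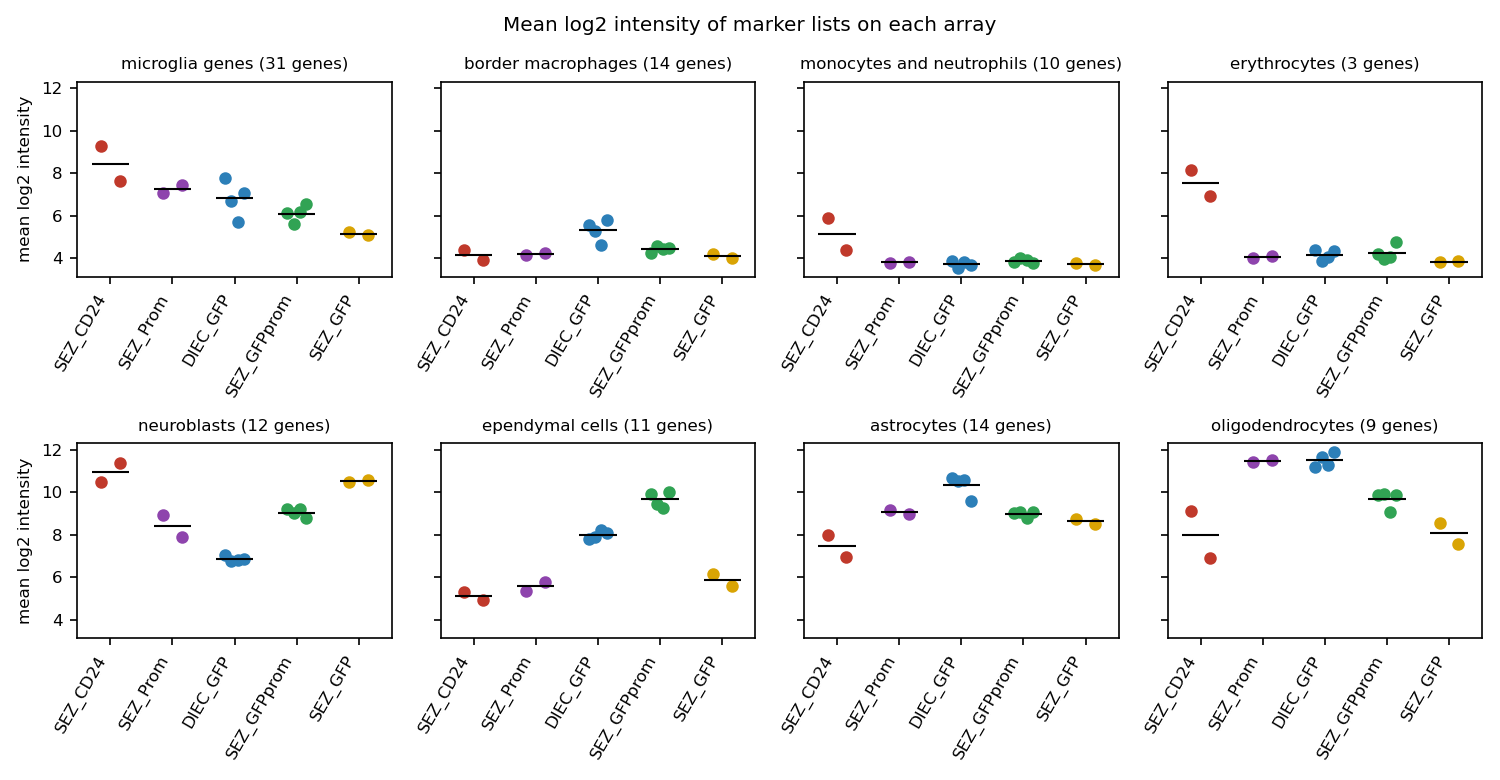
Mean log2 intensity of the microglia genes and of 7 lists of marker genes of other cells on each array (points) with the group mean (line). The microglia genes fall from SEZ_CD24 to SEZ_GFP, erythrocyte and monocyte genes stand out in SEZ_CD24 alone, border macrophage genes are highest in DIEC_GFP, and ependymal genes are highest in SEZ_GFPprom.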

How the data were processed

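The deposited values are linear intensity values of 45101 probe sets on each of 14 arrays, made by the authors with RMA per the submitters' processing notes, which give no version, and rounded to whole numbers in the deposited table. Cells were sorted by fluorescence, and their RNA was purified on columns with DNase and amplified before hybridisation, per the labels' protocols. Of the probe sets, 34945 carried 1 gene symbol, 932 several and 9160 none, and 64 were controls; the first were used. Intensities were taken to log2 without a pseudocount, and the probe set with the highest mean stood for a gene. Groups were compared with limma 3.58.1 in R 4.3.3, with a mean per group over all 14 arrays, two-sided moderated tests and Benjamini-Hochberg adjustment over 18193 genes at 0.05, without covariates, and the code was tested on simulated data. Differences are on the log2 scale, and intervals are 95%. Values are given on every array for Cx3cr1, Csf1r, Ctss, P2ry12, Tmem119, Aif1, Trem2, C1qa, Sall1, Spi1, Ptprc and up to 12 other genes that passed in a comparison; of each other list, up to 3 genes per comparison are named, by smallest adjusted p. The 31 genes, the other lists and the tests were chosen with earlier results of these data known. Alternatives were quantile normalization, equal array medians, a floor at 10, other probe set rules, a filter on dim genes, a fit of the groups compared alone, the replicate block, the 3' to 5' ratio as a covariate, array weights and leaving out each array. The promoter windows came from RefSeq (GRCm38.p6).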

Additional observations from a re-analysis of the deposited data

Results flagged for a closer look

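In SEZ_GFPprom, Gpr34 read 5 on replicate 2 and 8 on each of the other arrays, so the gap of the lowest array to its nearest neighbour was 1 of the group's whole range. All 4 values lie under 10, where intensities rounded to whole numbers leave few steps. It was the 1 value past Dixon's 95% critical value among 62 gene and group tests in groups of 4 arrays, a value that chance passes in about 1 in 20 such tests.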

How the results depend on the processing

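No direction of a called gene reversed: of 1428 recomputed gene differences 1052 kept their side of the threshold and 376 lost it. Of 240 recomputed counts, 168 stayed within 1.5 times. Leaving out each array gave 0 to 14 genes for SEZ_CD24 minus DIEC_GFP, 1 to 15 for SEZ_GFP minus DIEC_GFP, 0 to 21 for SEZ_GFP minus SEZ_CD24, 0 to 10 for SEZ_GFP minus SEZ_Prom, 0 to 10 for SEZ_GFPprom minus DIEC_GFP, 4 to 19 for SEZ_GFPprom minus SEZ_CD24, 0 to 2 for SEZ_GFPprom minus SEZ_GFP, 0 to 3 for SEZ_GFPprom minus SEZ_Prom, 0 to 2 for SEZ_Prom minus SEZ_CD24 and 0 to 0 for SEZ_Prom minus DIEC_GFP; where an arm kept 1 array, it was assumed to vary like the other groups. With values under 10 set to 10, the counts were 2 for SEZ_GFPprom minus DIEC_GFP, 0 for SEZ_GFPprom minus SEZ_Prom, 4 for SEZ_GFP minus DIEC_GFP, 2 for SEZ_GFP minus SEZ_Prom, 4 for SEZ_GFP minus SEZ_CD24 and 1 for SEZ_Prom minus SEZ_CD24. Without the dimmer 50% of genes they were 1 for SEZ_GFPprom minus SEZ_GFP, 1 for SEZ_GFPprom minus SEZ_Prom and 14 for SEZ_GFP minus SEZ_Prom. Fitting only the groups compared gave 1 for SEZ_GFPprom minus DIEC_GFP, 1 for SEZ_GFPprom minus SEZ_GFP, 4 for SEZ_GFP minus DIEC_GFP, 0 for SEZ_GFP minus SEZ_CD24, 0 for SEZ_Prom minus SEZ_CD24 and 1 for SEZ_CD24 minus DIEC_GFP. With the 3' to 5' ratio as a covariate the counts were 0 for SEZ_GFPprom minus DIEC_GFP, 1 for SEZ_GFPprom minus SEZ_Prom, 1 for SEZ_GFP minus DIEC_GFP, 1 for SEZ_GFP minus SEZ_CD24, 0 for SEZ_Prom minus SEZ_CD24 and 5 for SEZ_CD24 minus DIEC_GFP. With array weights they were 3 for SEZ_GFPprom minus SEZ_GFP, 18 for SEZ_GFP minus DIEC_GFP, 20 for SEZ_GFP minus SEZ_Prom, 1 for SEZ_Prom minus SEZ_CD24 and 5 for SEZ_CD24 minus DIEC_GFP, and with the mean of all probe sets 1 for SEZ_Prom minus SEZ_CD24. The causes were not tested. Arrays with the same number in their titles did not deviate together (22 pairs, r from -0.19 to 0.13, 3 over 0.1), and the main fit paired no samples by number. The description field of the labels numbers the arrays differently from the titles. Whether arrays shared animals or preparations cannot be told from this, since in groups of 2 arrays the deviations mirror each other. The replicate block gave 0 for SEZ_GFPprom minus SEZ_Prom, 13 for SEZ_GFPprom minus SEZ_CD24, 7 for SEZ_CD24 minus DIEC_GFP and 6 for SEZ_GFP minus SEZ_Prom. Signal limits the values under 10: Gpr34 in SEZ_GFPprom and SEZ_GFP, Ptprc in SEZ_GFP, Itgam on every array, and single arrays of P2ry12, Aif1 and Ptprc.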

Other observations

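Of the genes of the complement system other than C1q, 12 were measured. In SEZ_CD24 against DIEC_GFP 3 fell and 0 rose, against 9.74% and 6.9% of all genes: C2, a protease of the classical pathway, at -1.40 (adjusted p = 0.00137), Clu, a fluid-phase inhibitor also made by astrocytes, at -1.64 (adjusted p = 0.00274), and Cd59a, which blocks the membrane attack complex, at -1.50 (adjusted p = 0.0202). In SEZ_GFPprom against SEZ_CD24 2 rose and 0 fell, against 8.98% and 4.74% of all genes, namely Clu at 1.71 (adjusted p = 0.00328) and Serping1, the C1 inhibitor, at 2.27 (adjusted p = 0.0326). C2 fell against DIEC_GFP in SEZ_GFPprom (-0.99), SEZ_GFP (-1.04) and SEZ_Prom (-0.99) as well. Tlr3, a receptor for double-stranded RNA, likewise fell against DIEC_GFP in SEZ_GFPprom (-2.41), SEZ_GFP (-2.04), SEZ_Prom (-2.41) and SEZ_CD24 (-2.24), 4 comparisons that share the DIEC_GFP arrays. Lyz2, the lysozyme of phagocytes, fell against DIEC_GFP in SEZ_GFPprom, at -2.36 (adjusted p = 0.00679), and in SEZ_GFP, at -3.70 (adjusted p = 0.00208).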
